A study of Mus musculus with 12 samples.

Results

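The Schlafen genes are a family that lies in 1 cluster on mouse chromosome 11, and AA465934 is a long noncoding RNA (lncRNA) gene just beyond the end of that cluster. The 8 genes described here are Slfn1, Slfn2, Slfn3, Slfn4, Slfn5, Slfn8, Slfn9 and AA465934, chosen by name from the 55679 genes of the deposited table. AA465934 was chosen because its abundance differed between KO and WT lungs, so its difference between KO and WT lungs is given as a description with no test, and the same was done for that difference in the other 7 genes. RNA was measured in whole lung and whole heart of 6 adult male mice of the 129S6/SvEvTac background, of which 3 were Adam19 wildtype (WT) and 3 were Adam19 knockout (KO), in 12 libraries. Both tissues came from the same mice, and the replicate numbers 1, 2 and 3 of a genotype name the same mouse in lung and heart. KO mice are homozygous, in every cell of the body, for an Adam19-tdTomato allele in which coding exons were exchanged for a red fluorescent protein gene together with a hygromycin resistance cassette. The prefixes of the mouse identifiers differ between WT and KO mice in every case, so a difference that goes with the prefix and a difference of genotype cannot be told apart.

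Schlafen proteins are known from immune cells, where they limit growth and act on transfer RNA or on viral infection, and type I interferons induce several of them. They are grouped by length. Slfn1 and Slfn2 are short, Slfn3 and Slfn4 are of intermediate length, and Slfn5, Slfn8 and Slfn9 are long and carry a helicase-like part at their C-terminal end. Some of these genes, above all Slfn8 with Slfn9 and Slfn3 with Slfn4, are near copies of each other in part of their sequence. This bears on how reads are shared out between them.

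AA465934 (ENSMUSG00000093483.3) lies at chr11:83182464-83185897 of GRCm39 on the plus strand. Its nearest protein-coding neighbor on 1 side is Slfn14, which ends 4911 bases before AA465934 starts. The libraries kept the strand. Snord7, a small nucleolar RNA gene, lies in the intron between exons 2 and 3 and was listed at 0 in all 12 libraries. The annotation gives AA465934 6 transcripts in the deposited transcript table. ENSMUST00000177150, with 3 exons and 383 bases, is the one that carried nearly all of its counts in WT mice. Exon 2 is shown for 3 of these transcripts, because the main one held no counts in KO mice while the other 2 held some. The capitals mark the 7 bases at the start of exon 2 in ENSMUST00000177150 (chr11:83182793-83182923) that are absent from the exon 2 of ENSMUST00000176545 (chr11:83182800-83182923) and of ENSMUST00000243899 (chr11:83182828-83182923). All 3 are read on the plus strand of GRCm39.
ENSMUST00000177150: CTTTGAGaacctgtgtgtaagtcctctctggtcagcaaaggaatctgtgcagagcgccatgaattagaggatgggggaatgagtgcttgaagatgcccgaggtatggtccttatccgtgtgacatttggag
ENSMUST00000176545: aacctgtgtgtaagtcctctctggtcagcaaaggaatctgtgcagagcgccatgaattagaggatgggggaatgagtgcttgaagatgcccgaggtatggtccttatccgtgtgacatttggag
ENSMUST00000243899: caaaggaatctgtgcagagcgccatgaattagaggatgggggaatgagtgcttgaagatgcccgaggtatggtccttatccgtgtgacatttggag

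In ENSMUST00000176016, which has 2 exons, exon 1 runs on without a break through the first intron and the whole of exon 2 to base 83182923, so it holds these 7 bases too. The 300 bases around the start of the main transcript, from 250 before it to 50 from it on, lie at chr11:83182275-83182574 on the plus strand and are shown because the level of this transcript is what the results on AA465934 turn on.
AA465934: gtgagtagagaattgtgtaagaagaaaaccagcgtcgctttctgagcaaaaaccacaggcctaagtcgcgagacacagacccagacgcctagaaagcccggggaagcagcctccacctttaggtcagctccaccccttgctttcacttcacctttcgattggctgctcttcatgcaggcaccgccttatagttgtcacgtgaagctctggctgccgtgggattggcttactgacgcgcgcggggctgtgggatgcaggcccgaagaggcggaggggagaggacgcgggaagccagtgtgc

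The labels were checked first with Adam19 itself, which encodes a membrane metalloprotease. Its normalized abundance (log2 scale) was 9.22 in WT lungs and 3.72 in KO lungs, a log2 difference of −5.51 (SE 0.33, adjusted p = 0.000186 from limma, n = 3 and 3). In hearts it was 9.56 in WT and 6.42 in KO mice, a log2 difference of −3.14 (SE 0.31, adjusted p = 0.00558 from limma). For the Adam19_TdTomato construct all 3 WT lungs were listed at 0, and the KO lungs had a mean of 10.80. In hearts the construct had a mean of 0.72 in WT and 11.20 in KO mice. All 8 heart muscle genes of a marker list were lower and all 8 lung epithelium genes were higher in WT lung than in WT heart, as the tissue labels have it. The summed estimated counts per library ran from 17674788 to 35862932. Rn7s1, a gene of the 7SL RNA, took 2.1 to 34.0% of the counts in lung libraries and 2.7 to 11.8% in heart libraries, and its part in the results was not tested.

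In heart, AA465934 was the member called between genotypes. The normalized abundance (log2) in WT hearts was 8.74, 8.64 and 8.96, with a mean of 8.78 ± 0.16 (SD, n = 3). In KO hearts it was 2.72, 3.89 and 2.66, with a mean of 3.09 ± 0.69 (SD, n = 3). Every KO heart lay far under every WT heart. The log2 difference was −5.69 (SE 0.35, 95% interval −6.49 to −4.89, adjusted p = 0.000221 from limma), so that the KO level was 1.93% of the WT level. Of the 6 members that passed the filter on low values, AA465934 was the 1 called lower, against 0.0392% of the 15303 genes tested that were called lower and 0.085% called in either direction. A gene counted as called when its adjusted p was below 0.05, its groups differed at least 1.5-fold and one group mean reached 6. Slfn8 and Slfn9 had means under 6 in both WT and KO hearts, so neither could be called at any p. AA465934 reached the filter value of 3.46 in all 3 WT hearts but in 1 of the 3 KO hearts, so it was tested through its WT level. Its adjusted p ran from 1.46e-05 to 0.00456 over the alternatives that tested it. The hearts came from the same mice as the lungs behind the choice of AA465934, so this test is not independent of that choice. An exact permutation test of 3 against 3 samples cannot go below p = 0.10 (two-sided), and that was its value here. These are whole organs, so fewer cells that make the RNA and less RNA in each cell cannot be told apart.

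In lung, the values that led to the choice of AA465934 were 6.84, 6.35 and 6.58 in WT mice, a mean of 6.59 ± 0.25 (SD, n = 3). KO lungs had 3.22, 1.92 and 2.90, a mean of 2.68 ± 0.68 (SD, n = 3). The difference of the means was −3.91 on the log2 scale. The groups did not overlap. The KO values of the tissues overlapped, from 1.92 to 3.22 in lung and from 2.66 to 3.89 in heart, whereas the WT values did not. In WT mice AA465934 was lower in lung than in heart by a log2 difference of −2.19 (SE 0.22, adjusted p = 5.9e-05 from limma), which makes the heart level 4.56-fold higher. This comparison shares the WT lungs with the one behind the choice. Within each WT mouse the lung value was the lower, and lung minus heart was −1.90, −2.29 and −2.38 on the log2 scale for mice 1, 2 and 3. In KO mice the same differences were 0.50, −1.97 and 0.24, so their sign varied between mice. AA465934 did not pass the filter in the comparison of KO lung with KO heart and was not tested there.

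**Figure D1:**
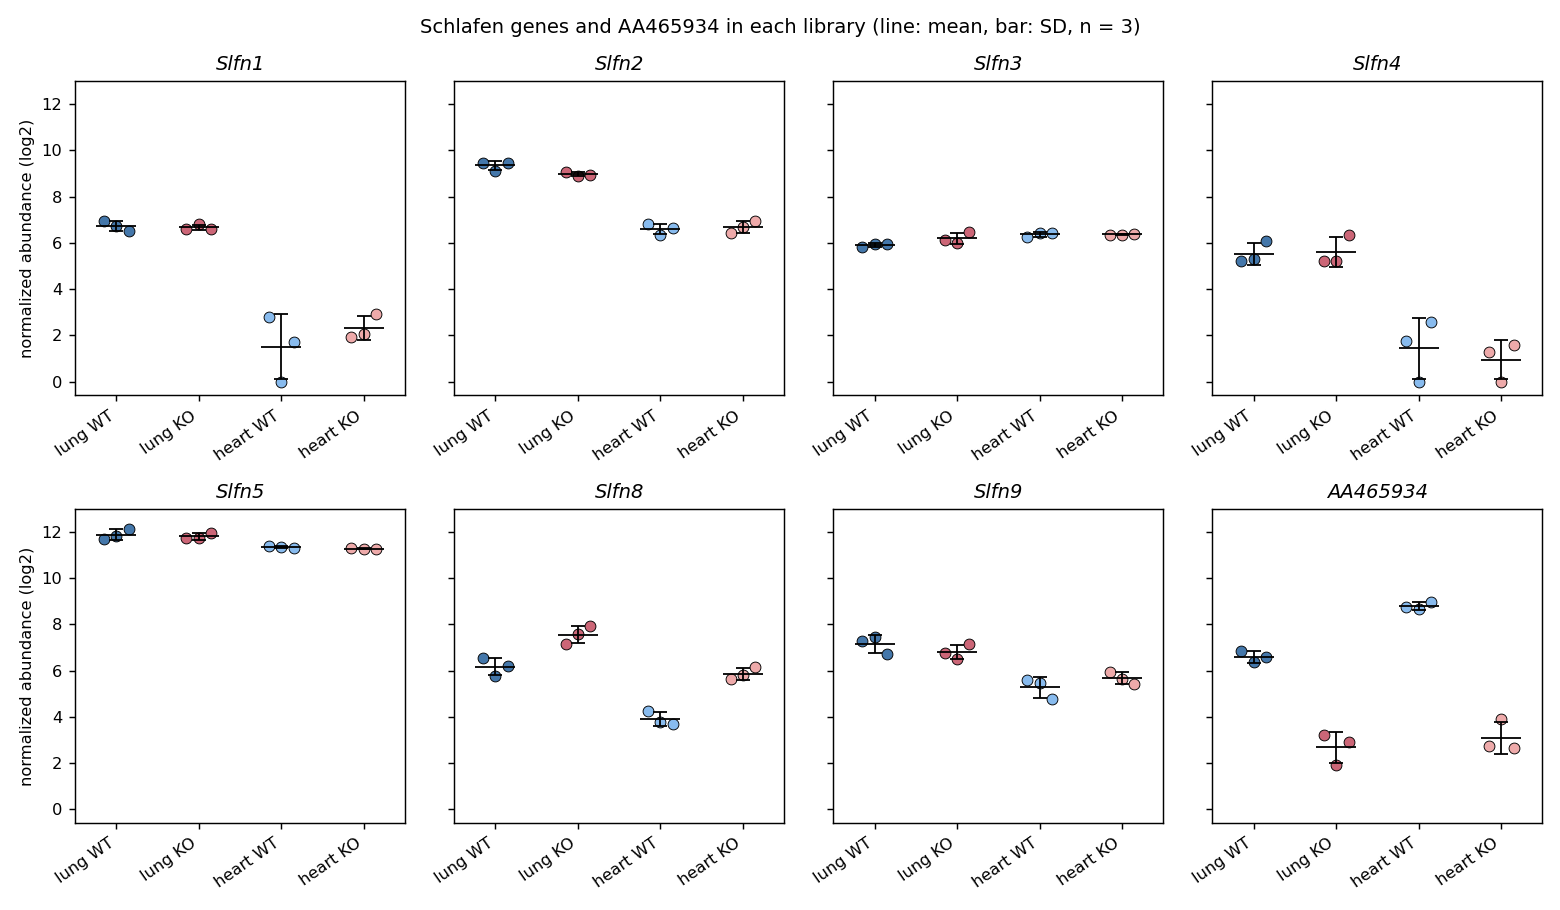
Normalized abundance (log2) of the 8 genes in each of the 12 libraries, grouped as lung WT, lung KO, heart WT and heart KO; points are libraries, horizontal lines are means and bars are SD (n = 3). AA465934 falls from 8.78 to 3.09 between WT and KO hearts, Slfn8 is higher in KO than in WT mice in both tissues, and Slfn1, Slfn2, Slfn4, Slfn8 and Slfn9 lie higher in lung than in heart.

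The transcript table shows which RNA these values stand for. In WT lungs AA465934 had 85.72, 61.32 and 104.89 estimated counts, of which ENSMUST00000177150 held 100%, 97.6% and 100%. WT hearts had 412.91, 209.15 and 260.16 estimated counts, and this transcript held 99.4%, 98.0% and 98.0% of them. In these hearts ENSMUST00000176545 had 1.23, 1.84 and 5.12 counts, and none of the WT lungs had any for it. ENSMUST00000177150 was listed at 0 in all 6 KO libraries. The KO lungs had 12.10, 5.78 and 6.14 estimated counts, spread over ENSMUST00000176016, ENSMUST00000176545 and ENSMUST00000243899. In KO hearts the sums were 7.53, 17.87 and 7.13. There ENSMUST00000176016, the transcript that keeps the first intron, held 7.53, 15.08 and 7.13 of them. It was listed at 0 in all 6 WT libraries. Thus the few counts left in KO mice were assigned to transcripts other than the one that filled the WT libraries. No run of 31 bases in ENSMUST00000177150, ENSMUST00000176545 or ENSMUST00000243899 is found in a transcript of another gene, and in ENSMUST00000176016 3.5% of such runs are. Salmon divides reads between overlapping transcripts by their likelihood, so single counts of this size are estimates and not read counts.

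**Figure D2:**
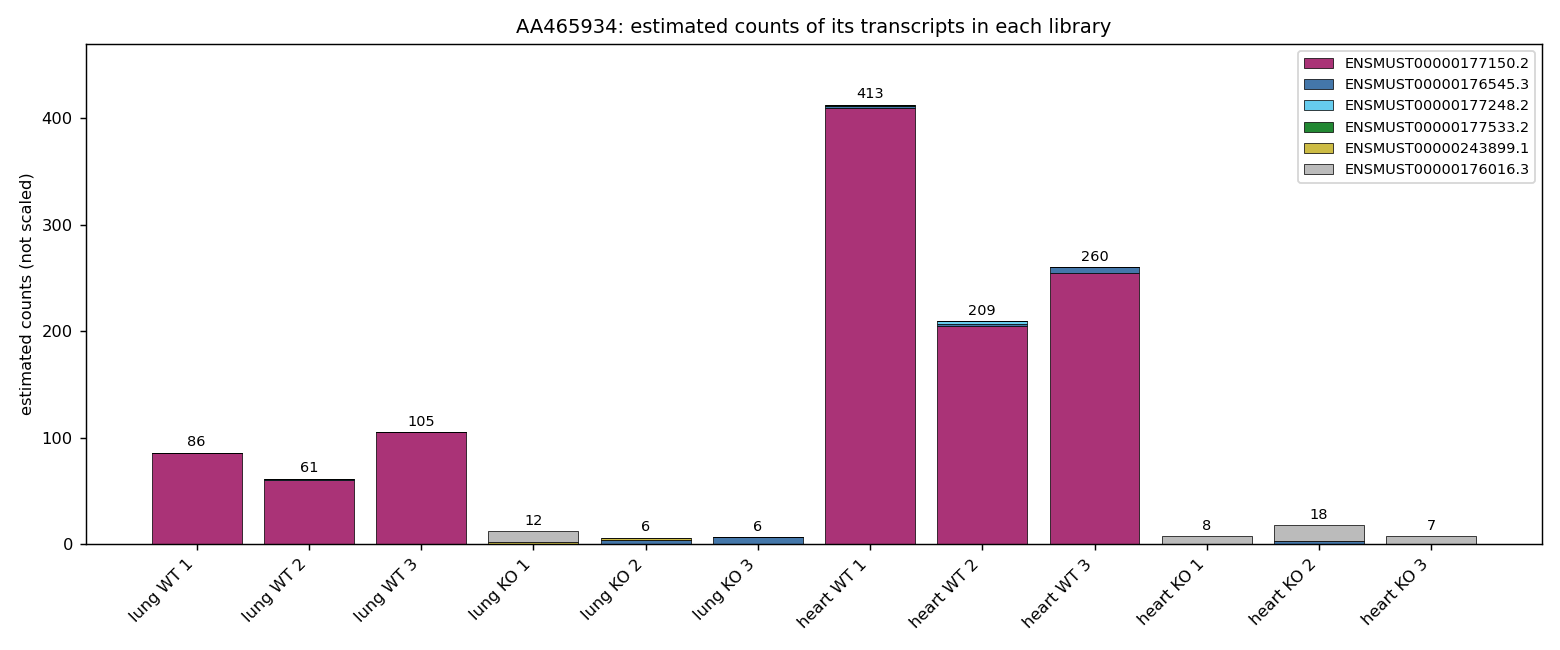
Estimated counts, not scaled between libraries, of the 6 AA465934 transcripts in each of the 12 libraries, stacked; the number above each bar is the sum. ENSMUST00000177150 fills the bars of the 6 WT libraries (61.32 to 412.91 counts in all) and is absent from the 6 KO bars (5.78 to 17.87 counts in all).

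Slfn8 was the Schlafen gene with the next widest distance between KO and WT mice. It is a long Schlafen at chr11:82892984-82911669 on the minus strand. In WT hearts its normalized abundance (log2) was 4.26, 3.77 and 3.69, a mean of 3.91 ± 0.31 (SD, n = 3). In KO hearts it was 5.63, 5.81 and 6.15, a mean of 5.86 ± 0.26 (SD, n = 3). The groups did not overlap, which held for 3 of the 6 members tested in heart (AA465934, Slfn5 and Slfn8) and for 13% of all genes tested. The log2 difference was 1.96 (SE 0.33, 95% interval 1.22 to 2.70), with an adjusted p of 0.138 from limma, and did not pass the test. Its mean was also under 6 in both groups. The adjusted p ran from 0.0225 to 0.75 over the alternatives, and the lowest value came from 1 model of all 12 libraries. In lung Slfn8 was 6.53, 5.77 and 6.20 in WT mice and 7.17, 7.57 and 7.91 in KO mice. These groups did not overlap either, with a difference of means of 1.38 on the log2 scale that is given with no test.

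Slfn8 shares much of its sequence with its neighbors. In its most abundant transcript, 27.5% of all runs of 31 bases also occur in another gene, mostly Slfn9, and 22.1% of those in the main Slfn9 transcript do, mostly in Slfn10. Slfn9 is a long Schlafen at chr11:82868552-82882656, and Slfn10-ps lies in the same cluster on the other side of Slfn8. Slfn10-ps had lower values in KO than in WT mice in both tissues. In WT lungs it was 6.08, 5.78 and 5.79 and in KO lungs 4.80, 4.58 and 5.65 on the log2 scale. In WT hearts it was 3.58, 3.69 and 3.59 and in KO hearts 2.26, 1.93 and 3.04. The groups did not overlap in either tissue, but the heart difference of −1.21 (SE 0.55) had an adjusted p of 0.684 from limma. Its transcript ENSMUST00000152760 had 35.54, 24.06 and 21.12 estimated counts in WT lungs and was listed at 0 in the other 9 libraries.

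The values of Slfn8, Slfn9 and Slfn10-ps were therefore also summed, a step chosen after the data were seen. The log2 sum was 6.28, 6.10 and 5.64 in WT hearts and 6.84, 6.74 and 6.91 in KO hearts. These still did not overlap. The difference was 0.82 (SE 0.23, adjusted p = 0.492 from limma), less than the 1.96 of Slfn8 alone. In heart Slfn9 differed by 0.40 and Slfn10-ps by −1.21, so the sum had to rise less than Slfn8 alone. That holds however the reads were divided, so nothing is read from the smaller difference. In lung the sum was 8.29, 8.13 and 7.86 in WT mice and 8.11, 8.24 and 8.75 in KO mice, and these groups overlapped, with a difference of 0.27. How reads shared by these genes were divided cannot be seen in the deposited values, and its part in the Slfn8 values was not tested.

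**Figure D3:**
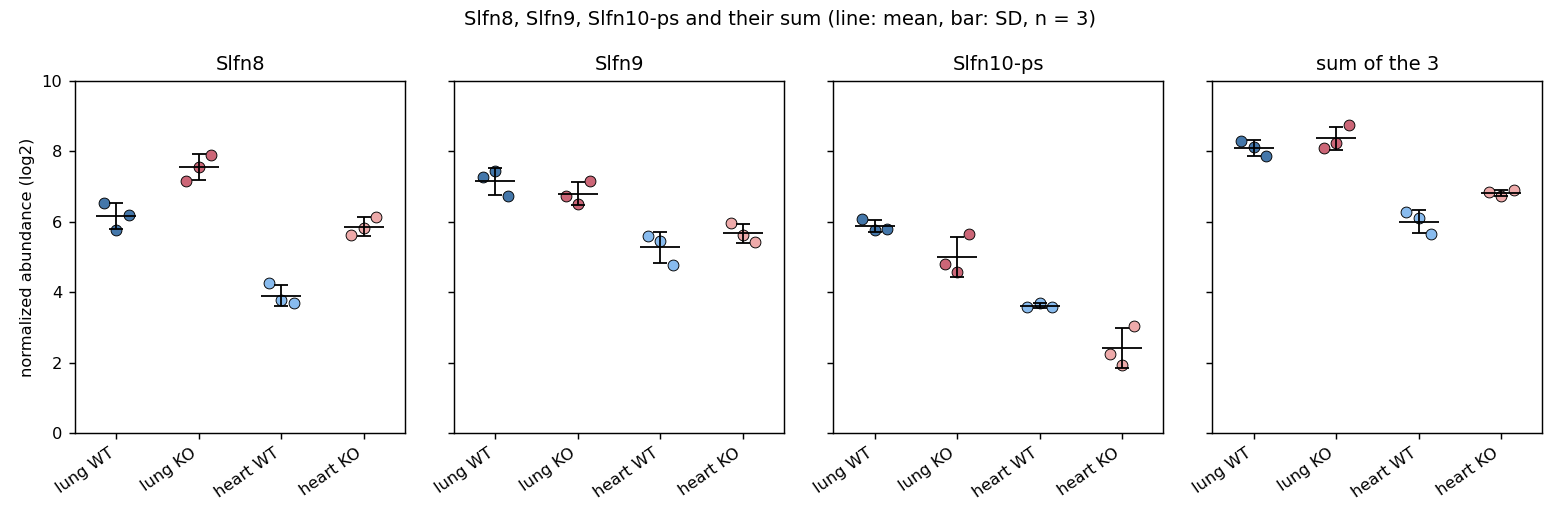
Normalized abundance (log2) of Slfn8, Slfn9, Slfn10-ps and the sum of their values in each library, with means (lines) and SD (bars, n = 3). Slfn8 is higher and Slfn10-ps lower in KO than in WT mice in both tissues; the summed values differ by 0.82 in heart and by 0.27 in lung, where the groups overlap.

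Within single transcripts of the long Schlafen genes the genotypes also differed in what was listed. ENSMUST00000138797 of Slfn9 had 15.96, 21.04 and 11.07 estimated counts in KO lungs and 8.45, 0 and 6.22 in KO hearts, and was listed at 0 in all 6 WT libraries. In this transcript 35.7% of the runs of 31 bases occur in another gene. At the level of the gene Slfn9 was 7.28, 7.43 and 6.73 in WT lungs and 6.74, 6.52 and 7.15 in KO lungs, with overlap. WT hearts had 5.60, 5.46 and 4.76 and KO hearts 5.96, 5.62 and 5.44. The heart difference for Slfn9 was 0.40 (SE 0.32, 95% interval −0.32 to 1.11, adjusted p = 0.782 from limma).

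Slfn5, a long Schlafen with a known part in repressing transcription, had the highest level per length of the Schlafen genes in both tissues (values per kilobase follow). It lies at chr11:82842100-82855666. It had 11.67, 11.83 and 12.14 in WT lungs, 11.73, 11.72 and 11.97 in KO lungs, 11.38, 11.34 and 11.31 in WT hearts and 11.29, 11.24 and 11.27 in KO hearts (log2). All 3 KO hearts were under all 3 WT hearts, but by little. The heart difference was −0.07 (95% interval −0.32 to 0.17, adjusted p = 0.88 from limma).

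Slfn2, a short Schlafen that keeps T cells quiescent, had 9.46, 9.13 and 9.46 in WT lungs and 9.08, 8.89 and 8.94 in KO lungs. The KO lungs lay just under the WT lungs. Hearts had 6.80, 6.34 and 6.63 in WT and 6.42, 6.68 and 6.92 in KO mice, and these groups overlapped. The Slfn2 difference in heart was 0.08 (95% interval −0.43 to 0.60, adjusted p = 0.94 from limma). Slfn3, of intermediate length, had 5.83, 5.96 and 5.94 in WT lungs and 6.12, 5.98 and 6.47 in KO lungs, the lowest KO value being close above the highest WT value. Its heart values were 6.24, 6.40 and 6.44 in WT and 6.33, 6.36 and 6.39 in KO mice. Here the KO values fell within the range of the WT values, and the 95% interval of the difference ran from −0.45 to 0.45 (adjusted p = 1 from limma).

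Slfn1 and Slfn4 were near the limit of detection in heart. Slfn1, the founding member, which slows the growth of thymocytes when overexpressed, had 6.94, 6.71 and 6.51 in WT lungs and 6.62, 6.80 and 6.59 in KO lungs. In hearts its values were 2.79, 0 and 1.70 in WT and 1.95, 2.06 and 2.92 in KO mice, which stand for at most 7.20 estimated counts. Slfn4, a gene of intermediate length induced in myeloid cells, had 5.21, 5.29 and 6.07 in WT lungs and 5.23, 5.20 and 6.35 in KO lungs. In hearts it was 1.76, 0 and 2.58 in WT and 1.27, 0 and 1.57 in KO mice. Neither gene passed the filter in the comparison of KO with WT hearts. The KO minus WT difference in heart was 0.81 for Slfn1 (p = 0.4, exact permutation test, two-sided, n = 3 and 3) and −0.50 for Slfn4 (p = 0.6, the same exact test), and the groups overlapped. A fall from WT levels this low was not detectable at this depth.

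Over the 8 members in lung, 4 had groups that did not overlap (AA465934 and Slfn2 lower in KO mice, Slfn3 and Slfn8 higher), beside 12.8% of all genes tested. This is the contrast the choice rests on, so nothing is read from the count.

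Between tissues most Schlafen genes were higher in lung. In WT mice 4 members were called higher in lung (Slfn1, Slfn2, Slfn8 and Slfn9) and 1 lower (AA465934), of 8 tested. Of all 16636 genes tested 29.7% were called higher, 20.5% lower and 50.2% in either direction, so a call was common in this comparison. The lung and heart values did not overlap in any of the 8 members, nor in 68.7% of all genes tested. The log2 difference, lung minus heart, was 5.23 (SE 0.66) for Slfn1, with 4.48 without WT heart replicate 2, 5.87 without WT heart replicate 1 and 3.90 with a pseudocount of 5. It was 2.76 (SE 0.22, adjusted p = 1.33e-05 from limma) for Slfn2. It was 2.26 (SE 0.35) for Slfn8 and 1.87 (SE 0.34) for Slfn9. The adjusted p of these 4 lay between 1.33e-05 and 0.00159 with limma. Without WT lung replicate 1, Slfn8 (2.08) was not called, its mean falling under 6, and Slfn5 (0.64) was. Slfn4, with 4.07 (SE 0.67, adjusted p = 0.000865 from limma), was not called since its mean stayed under 6, and it differed by 3.35 without WT heart replicate 2 and by 2.80 with a pseudocount of 5. Slfn1 and Slfn4 reached the filter through their lung values, so they had to differ. With the filter asked of every library, both left the test and 4 of 6 members were called (AA465934, Slfn2, Slfn8 and Slfn9). Slfn5 differed by 0.54 (SE 0.16, adjusted p = 0.0199 from limma), under the fold change asked for. Slfn3 differed by −0.45 (95% interval −1.04 to 0.14, adjusted p = 0.159 from limma). The median over the 7 Schlafen members was 2.26, beside 0.30 over all genes tested. It takes in Slfn1 and Slfn4, which had to differ, so nothing is read from its distance to 0.30.

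In KO mice the same 4 Schlafen genes were called. Slfn1, Slfn2, Slfn8 and Slfn9 were higher in KO lung than in KO heart, 4 of 7 members tested, beside 30.9% of the 16802 genes tested called higher and 53.2% called in either direction. The log2 differences were 4.36 (SE 0.34) for Slfn1, 2.29 (SE 0.17) for Slfn2, 1.68 (SE 0.25) for Slfn8 and 1.13 (SE 0.25) for Slfn9, with adjusted p from 6.75e-06 to 0.00376 in limma. Slfn1 and Slfn4 again reached the filter through lung alone and had to differ, and with the filter asked of every library 3 of 5 members were called (Slfn2, Slfn8 and Slfn9). With a pseudocount of 5 the differences of Slfn1 and Slfn4 were 3.54 and 3.11. Those of Slfn4 (4.64) and Slfn5 (0.54) were again outside one of the thresholds, and Slfn3 differed by −0.17 (95% interval −0.67 to 0.32, adjusted p = 0.486 from limma). The groups did not overlap in 6 of the 7, beside 77% of all genes tested. Whether the tissue differences of WT and KO mice differ from each other was not tested, since that test uses the lung contrast behind the choice.

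**Figure D4:**
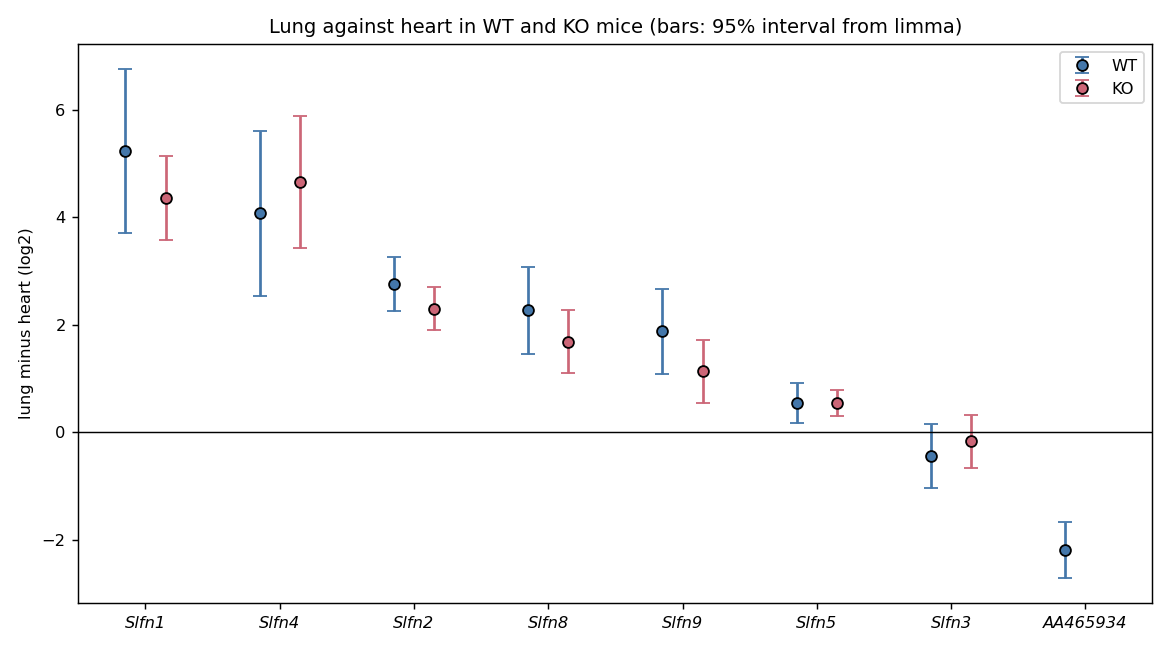
Difference between lung and heart (log2, lung minus heart) of each gene in WT and in KO mice, with the 95% interval from limma (n = 3 and 3). Slfn1, Slfn4, Slfn2, Slfn8 and Slfn9 lie above 0 in both genotypes, Slfn3 lies near 0, and AA465934, at −2.19 in WT mice, was not tested in KO mice.

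Most markers of immune cells and of endothelium were higher in lung than in heart, and so were those of lung epithelium. In WT mice all 12 monocyte and macrophage genes tested, all 7 B cell genes, 8 of 12 T and NK cell genes and 5 of 6 neutrophil genes were called higher in lung than in heart. In KO mice these counts were 11 of 12, 7 of 7, 8 of 12 and 6 of 6. Of all genes tested 29.7% were called higher in lung in WT and 30.9% in KO mice. Lung epithelium genes were called higher for 8 of 8 in both genotypes, with median log2 differences of 10.82 in WT and 10.01 in KO mice. Endothelium genes were called higher in lung for 5 of 8 in WT and 7 of 8 in KO mice, with median log2 differences of 1.20 and 1.39, and red blood cell genes for 0 of 5 in both, with 0 of them at an unadjusted p under 0.05 and 0 called by limma-voom. The log2 summed level of the 12 monocyte and macrophage genes was 14.62 to 15.21 in WT lungs and 11.73 to 12.11 in WT hearts. For T and NK cells it was 10.39 to 11.01 in WT lungs and 6.08 to 6.32 in WT hearts. None of the genes on these 2 lists was at 0 in all libraries. The part of these cells in the Schlafen levels was not tested.

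Between KO and WT mice, limma and limma-voom called 0 genes of the marker lists (immune cells, endothelium, red blood cells, lung epithelium and heart muscle) in either tissue. Many immune genes did not pass the filter in heart and could not be called. Those tested there were 8 of 12 monocyte and macrophage, 2 of 7 B cell, 3 of 12 T and NK cell and 1 of 10 neutrophil genes. Of all genes tested limma called 0.085% in heart and 0.0665% in lung. In lung an unadjusted p under 0.05 was found for 3 of 8 lung epithelium genes, 1 of 8 heart muscle genes, 1 of 12 monocyte and macrophage genes and 1 of 6 neutrophil genes tested. In heart it was found for 1 of 8 heart muscle genes. The other lists had 0 at an unadjusted p under 0.05. The share of all genes at such a p is not given here, so nothing is read from these counts.

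Interferon-stimulated genes, a list of 30 such as Isg15, Ifit1 and Mx1, were examined because interferons induce Schlafen genes. Of those tested, limma called 0 of 26 between KO and WT hearts, beside 0.085% of all 15303 genes tested. Between KO and WT lungs it called 0 of 30, beside 0.0665% of all 16551 genes tested. In each tissue 1 gene of the list had an unadjusted p under 0.05, a count that is likewise given without the share of all genes. For the list limma-voom also called 0. The median difference of the list was 0.16 in heart, beside 0.03 over all genes tested, and −0.04 in lung, beside 0.01. The log2 summed level of the list was 12.18 to 12.45 in WT hearts and 12.27 to 12.42 in KO hearts. Between tissues of WT mice 19 of 28 were called higher in lung, beside 29.7% of all genes tested.

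Promoters of the members were searched on both strands for GAAA, any 2 bases and GAAA again, the core of the interferon-stimulated response element, in the 300 bases around the start of the most abundant transcript. The windows of 3 of the 8 members hold it: Slfn5, Slfn8 and Slfn9. So do 4.06% of the windows of 31192 genes and 3.74% of those of 18003 protein-coding genes. The 3 windows are shown for their match, which is in capitals and reads TTTCGTTTTC where it lies on the strand opposite to the gene. Counted from the first base of the transcript, the match begins at −155 in Slfn5, −15 in Slfn8 and −45 in Slfn9. The Slfn5 window is at chr11:82842678-82842977 on the plus strand, that of Slfn8 at chr11:82911620-82911919 on the minus strand and that of Slfn9 at chr11:82882607-82882906 on the minus strand of GRCm39.
Slfn5: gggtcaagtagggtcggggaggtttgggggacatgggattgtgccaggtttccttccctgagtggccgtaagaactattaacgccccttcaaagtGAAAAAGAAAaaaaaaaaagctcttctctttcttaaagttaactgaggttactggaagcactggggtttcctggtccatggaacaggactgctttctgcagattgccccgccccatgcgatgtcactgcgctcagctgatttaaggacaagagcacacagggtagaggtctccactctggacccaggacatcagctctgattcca
Slfn8: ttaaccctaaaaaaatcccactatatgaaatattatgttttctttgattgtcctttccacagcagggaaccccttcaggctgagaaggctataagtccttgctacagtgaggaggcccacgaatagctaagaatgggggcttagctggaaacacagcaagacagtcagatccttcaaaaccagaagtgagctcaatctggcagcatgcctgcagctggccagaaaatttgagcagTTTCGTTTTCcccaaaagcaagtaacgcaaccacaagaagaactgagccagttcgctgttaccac
Slfn9: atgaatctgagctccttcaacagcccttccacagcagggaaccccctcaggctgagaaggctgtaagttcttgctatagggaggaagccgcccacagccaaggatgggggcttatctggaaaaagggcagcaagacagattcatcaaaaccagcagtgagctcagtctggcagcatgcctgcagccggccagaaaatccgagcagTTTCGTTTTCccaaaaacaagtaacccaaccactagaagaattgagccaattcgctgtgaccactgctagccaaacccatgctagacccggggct

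The Slfn8 and Slfn9 windows were identical at 75.3% of the 300 bases in a global alignment with gaps, so their matches are not independent. A match in these letters is a description and says nothing of whether a factor binds there. The windows of Slfn1, Slfn2, Slfn3, Slfn4 and AA465934 hold no match.

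Levels can be compared between genes only per length, here as normalized estimated counts per kilobase of transcript, each transcript divided by its own length. In WT hearts AA465934 stood highest of the 8, with 1036 ± 118 (SD, n = 3), ahead of Slfn5 with 505 ± 11.03. Slfn2 followed with 48.1 ± 7.80 and Slfn3 with 15.8 ± 0.84. Slfn9 with 6.50 and Slfn8 with 4.19 overlapped, and so did Slfn1 with 1.32 and Slfn4 with 0.66. In WT lungs the order was led by Slfn5 with 737 ± 70.1, Slfn2 with 329 ± 42.0 and AA465934 with 227 ± 38.9, each apart from the next. Slfn1 came next with 55.5 ± 8.22. Slfn9, Slfn8, Slfn4 and Slfn3 lay between 11.7 and 23.2 per kilobase, and each overlapped with its neighbor in the order.

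In KO mice the order differed by AA465934 and Slfn8. AA465934 had 11.2 ± 7.43 per kilobase in KO lungs, the lowest mean of the 8, where it overlapped with Slfn3 (14.4 ± 2.54). In KO hearts it had 18.1 ± 9.75 and overlapped with Slfn8. Slfn8 had 56.8 ± 14.1 in KO lungs and overlapped with Slfn1 (53.2 ± 4.38). In KO hearts it had 17.0 ± 2.69 and overlapped with Slfn3 (16.1 ± 0.41). Slfn5 with 754 and 487 and Slfn2 with 252 and 51.4 per kilobase, in KO lungs and KO hearts, held the top of the order in both.

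The genes around AA465934 were examined in the same way. Of the 12 gene rows within 150 kb of it that are not members, 5 passed the filter in heart and 6 in lung. Between KO and WT mice limma called 0 of them in either tissue, beside 0.085% of all genes tested in heart and 0.0665% in lung. Groups did not overlap for 2 of 5 in heart and 3 of 6 in lung, beside 13% and 12.8% of all genes tested. An unadjusted p under 0.05 was found for 1 of 5 in heart and 2 of 6 in lung, and limma-voom also called 0. The share of all genes at such a p is not given here, so nothing is read from these counts. Ap2b1, a subunit of the clathrin adaptor that starts 7.0 kb from the AA465934 start, differed by −0.19 in heart (adjusted p = 0.74 from limma) and by 0.02 in lung. AI662270, a lncRNA gene on the Schlafen side, differed by −0.69 (SE 0.51) in heart and by −0.39 in lung.

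Slfn14, the Schlafen gene nearest to AA465934 and a ribonuclease of ribosomes, was at 2.98 or less in all libraries and passed the filter in no comparison. Mmp28, a secreted metalloprotease further off, was higher in KO mice without overlap in both tissues, with a difference of 0.66 (SE 0.21, adjusted p = 0.599 from limma) in heart and of 0.52 in lung. Rasl10b, a gene of a small GTPase, was 10.11 in WT hearts and 10.04 in KO hearts, and in lung it was low, with values of 3.18, 3.10 and 0 in WT and 4.46, 4.05 and 3.64 in KO mice. The heart difference of each of these genes was smaller in size than the −5.69 of AA465934.

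**Figure D5:**
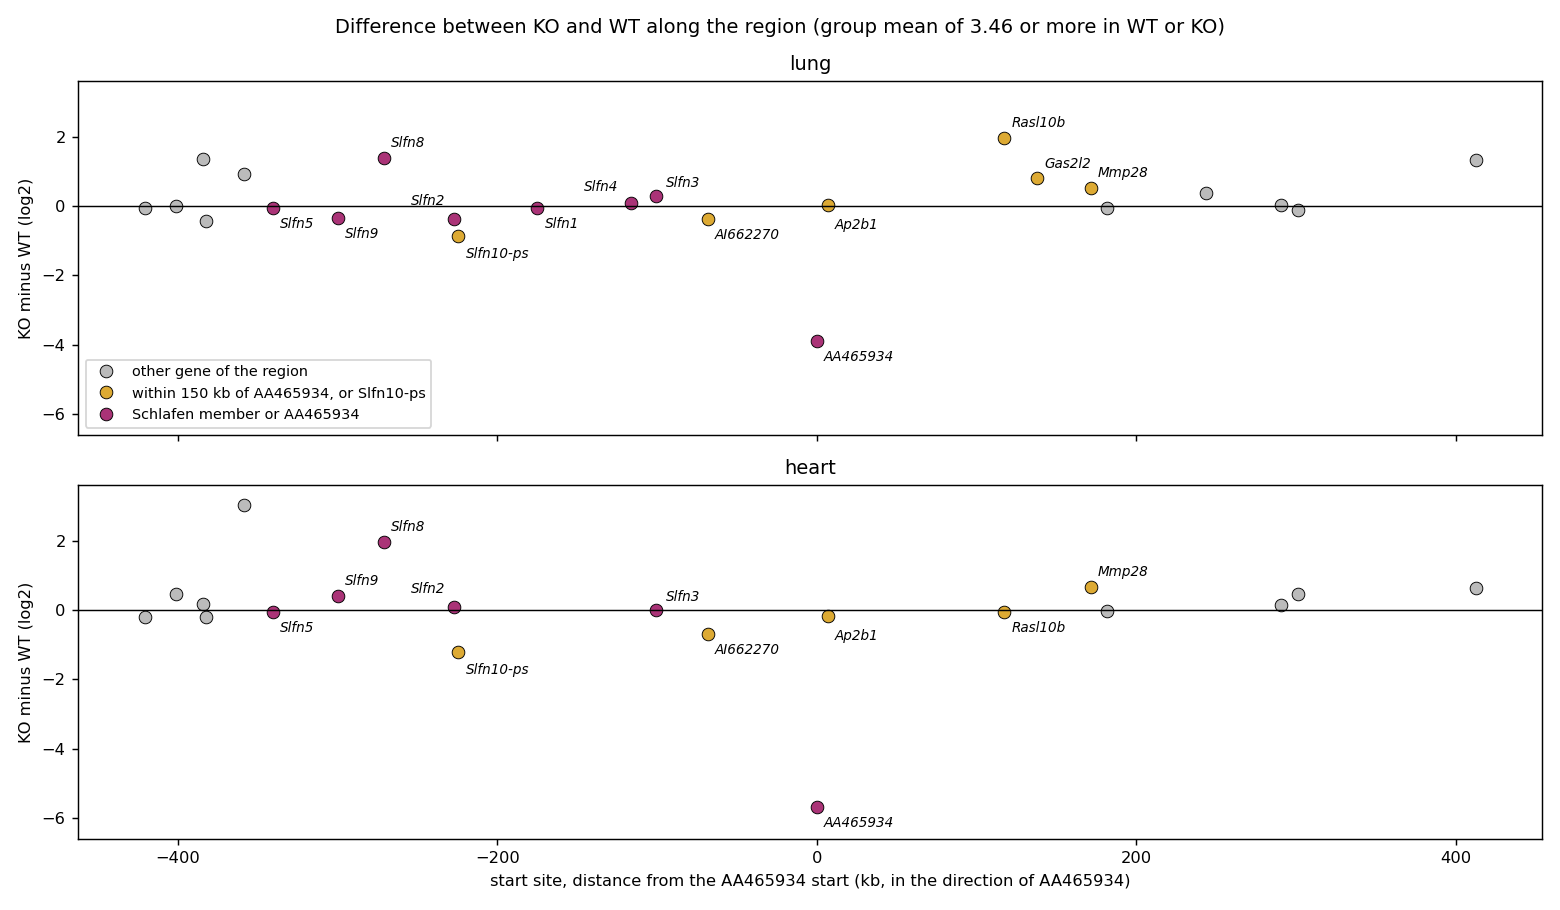
Difference between KO and WT (log2, KO minus WT) of genes around AA465934 in lung and heart, against the distance of their start site from the AA465934 start in kb. Shown are genes of the region whose mean in the tissue was 3.46 or more in WT or KO mice. Genes that overlap AA465934 are left out, and some of those shown are not reported in the text. AA465934 stands at −3.91 in lung and −5.69 in heart, and its neighbors within 150 kb lie between −0.69 and 1.96.

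Genes with the pattern over the 12 libraries most like that of each member were found by Pearson correlation of the log2 values among 17666 genes, given as a description since all points share the 4 groups. For AA465934 these were Gm10184 (r = 0.952), Gm12663 (r = 0.937) and Gm18860 (r = 0.93), the last 2 annotated as processed pseudogenes. Slfn2 was most like Pak1 (r = 0.996) and Gimap8 (r = 0.995), of which Gimap8 is known from lymphocytes. For Slfn3 they were Tmed2b, Gm14057 and Lrp2bp, with r from 0.913 to 0.927. Slfn5 was most like 3 small RNA genes, Snord22, Gm23849 and Snord3a, with r from 0.986 to 0.987. The genes most like Slfn8 were Ighv8-12, Scg2 and Ap4m1, with r from 0.952 to 0.954. Those most like Slfn9 were Tchh, Sfxn2 and Gnai1, with r from 0.973 to 0.976.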

How the data were processed

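RNA of whole lung and heart of 3 WT and 3 KO mice was sequenced as stranded total RNA, 1 library per tissue and mouse. The authors quantified reads with Salmon against GENCODE transcripts of mm39, a genome of another mouse strain (C57BL/6J), and deposited log2 values. The deposited transcript values are log2(1 + estimated count). The deposited gene values are log2 normalized abundances that, for at least 94.7% of well-counted genes with 1 transcript, equal the transcript value plus a constant per library (−0.628 to 0.796) within 0.01; in genes with several transcripts they need not equal the log2 of the summed counts. Of 55679 gene IDs, 55128 (99.0%) matched GENCODE vM39 of GRCm39, the source of coordinates and, with the genome, of all sequences. Normalized counts per kilobase were computed from the transcript values.

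Deposited gene values were fitted with limma 3.58.1 (R 4.3.3; lmFit, eBayes with a variance trend) within the libraries compared, without covariates. Genes with a value of at least 3.46, which is log2(1 + 10), in at least 3 libraries were tested, with Benjamini-Hochberg adjustment over all of them. The thresholds, after the study's methods, were adjusted p below 0.05, a 1.5-fold difference and 1 group mean of 6 or more. Fold changes are on the log2(value + 1) scale, which understates the change of low genes. The fit was tested on simulated data. The genes described, the lists and the motif were chosen with earlier results of these data known. The named genes are the 8 members, Adam19 and its construct, genes within 150 kb of AA465934, other Schlafen genes and the 3 genes most correlated with AA465934 and with each Schlafen gene tested in every comparison; some of these are not reported here.

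Lung and heart libraries of a replicate number come from the same mouse by the mouse identifiers in the labels. The deviations of the paired libraries from their group means correlated across genes with r from −0.068 to 0.136. Lung and heart of different mice of a genotype gave r from −0.127 to 0.099, so these correlations do not tell the pairs apart. Each mouse is 1 sample per tissue, so p-values rest on 3 mice a group. Alternatives were another filter, scaling, pseudocount (5), variance model, all 12 libraries in 1 model, summed transcripts, the mouse as a block and leaving out each library.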

Additional observations from a re-analysis of the deposited data

How the results depend on the processing

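Over 351 recomputed values with a test, 342 kept their direction and their side of the thresholds, and in lung the 63 recomputed differences of the other 7 members moved by less than 1 SD. With a filter of 3.46 in every library, 0 members were called between KO and WT hearts, since the KO values of AA465934 removed it from the genes tested and 7 genes in all were called in place of 13; under each other setting 1 member, AA465934, was called. Leaving out 1 library gave 1 member called each time in that comparison, 5 in the WT comparison of tissues and 4 in the KO comparison. The call of Slfn8 in WT mice was lost, and one of Slfn5 gained, without WT lung replicate 1; with summed transcripts Slfn5 (0.62) was past them in KO mice. The lung difference of AA465934 was −3.25 with a pseudocount of 5, which shrinks differences of low values, and −4.18 to −3.53 when 1 library was left out.

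The heart differences of Slfn2 and Slfn3 lay around 0 and crossed it: Slfn3 was −0.0179 with median-centred libraries, −0.0598 without WT heart replicate 1 and −0.0157 without KO heart replicate 3, and Slfn2 was −0.0392 without WT heart replicate 2 and −0.0400 without KO heart replicate 3, with no call among them; over all libraries left out in turn Slfn2 ran from −0.0400 to 0.2117 and Slfn3 from −0.0598 to 0.0389. With the mouse as a replicate block, lung against heart gave the same 5 members in WT mice and the same 4 in KO mice, and the block changed no call of a member. No paired analysis was possible between KO and WT because the mice differ. When an arm held 1 library fewer, the fit pooled the spread over groups. Values of 0 allow up to 3 estimated counts in a library, which is 1.94 to 5.21 in normalized counts, and this covers counting error only.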
